A study of Mus musculus with 6 samples.

Results

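The Wnt genes examined here were the secreted Wnt ligands, their Frizzled receptors and LRP co-receptors, the secreted SFRP and DKK inhibitors, and the Axin scaffolds. They were taken from the deposited gene table by symbol, as every Wnt, Fzd, Sfrp and Dkk gene with a numbered symbol together with Lrp5, Lrp6, Axin1 and Axin2. The choice used no measured value and gave 41 of the 34724 genes in the table, namely 19 ligands, 10 Frizzleds, 2 LRP co-receptors, 4 SFRPs, 4 DKKs and 2 Axins. RNA was read by Oxford Nanopore direct RNA sequencing, which reads the RNA strand itself, in 3 libraries each of 2H-11 and SVEC4-10. By their labels both are SV40-transformed endothelial lines of adult C3H/HeJ mice, taken from the axillary lymph node; 2H-11 stands for tumor endothelial cells, and SVEC4-10 for normal endothelial cells. The comparison asks how transcript levels differ between the lines. With 1 line for each status, the effect of tumor or normal origin and that of the individual line cannot be told apart. Separate cultures are not stated for the 3 libraries of either line, and p-values then measure only the spread between libraries, which may be technical.

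Wnt proteins are lipid-modified secreted ligands. In the beta-catenin branch a Wnt joins a Frizzled to Lrp5 or Lrp6, the Axin-based complex that marks beta-catenin for destruction is disabled, and beta-catenin enters the nucleus to act with TCF and LEF factors. Other branches work through Frizzleds with Ror or Ryk receptors on the cytoskeleton and on calcium. SFRPs bind Wnts outside the cell, and Dkk1 blocks the LRP co-receptors. In the vessels of the brain and retina, Wnt7a, Wnt7b and Norrin acting through Fzd4 are known to form the endothelial barrier.

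Counted reads per library were between 3628400 and 16798666, and SVEC4-10 replicate 3 held 68% of the counts of its line. Levels are CPM, the count scaled to 1000000 counted reads of the library. Of 14 endothelial markers, 6 (Icam2, Erg, Cldn5, Emcn, Tie1 and Vwf) had no count in any library, so these defining transcripts of the labelled cell type were not detected. The summed level of all 14 was 58.5 to 71.4 CPM in 2H-11, with 3.97 to 6.01 CPM in SVEC4-10. Each of the 3 members tested (Ecscr, Eng and Egfl7) was higher in 2H-11. Most of the 2H-11 sum was Ecscr, at 54.9, 45.3 and 42.9 CPM in replicates 1 to 3. Pecam1, Cdh5, Kdr and Tek had 1, 2, 3 and 0 counts in 2H-11, with 0, 0, 8 and 2 in SVEC4-10. Flt1, also not tested, had 27 counts in 2H-11 and 41 in SVEC4-10, and its libraries overlapped between the lines. Of 8 mesothelial markers, 1 was higher and 6 were lower in 2H-11, and they summed to 58.5 to 72.4 CPM in 2H-11, with 3402 to 4301 CPM in SVEC4-10. Of 12 fibroblast and mural markers, 6 were higher and 1 lower in 2H-11, and their sums were 2198 to 2860 CPM in 2H-11, with 2474 to 2778 CPM in SVEC4-10. The overlap of the sums hides differences in single genes. Col1a1, Col1a2, Pdgfra, Pdgfrb, Thy1 and Cspg4 were higher in 2H-11 and Dcn was lower. Pdgfrb and Thy1 had 417 and 614 counts in 2H-11 and none in SVEC4-10, while Dcn had 207 in 2H-11 and 6962 in SVEC4-10. The 5 leukocyte markers summed to 2.92 to 4.12 CPM in 2H-11, with 3.16 to 5.51 CPM in SVEC4-10, and Itgam and Cd3e were at 0. The 5 epithelial markers summed to 0 to 0.974 CPM in 2H-11, with 3.39 to 6.06 CPM in SVEC4-10; Epcam and Cdh1 were at 0 and Krt8 was lower in 2H-11. The 8 stress genes used as signs of RNA quality summed to 85.7 to 116 CPM in 2H-11, with 58.4 to 89.3 CPM in SVEC4-10. All 8 were tested; the heat shock genes Hspa1a and Hspa1b were higher in 2H-11 and Atf3, a stress-induced factor, was lower. Hspa1a had 112 counts in 2H-11 and 1 in SVEC4-10 (edgeR adjusted p = 1.42e-07), and Hspa1b was 13.5-fold higher in 2H-11 (edgeR adjusted p = 1.32e-06). The part of these differences between the lines in the results below was not tested. In bulk RNA, fewer cells of a type and less RNA per cell cannot be told apart.

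Of the 41 genes, 26 had at least 1 count in 2H-11 and 22 in SVEC4-10, and 18 were counted in both. Counts were confined to 2H-11 for 8 genes and to SVEC4-10 for 4, and for Wnt1, Wnt6, Wnt16 and Wnt2b among these they came to 1 or 2. Of all Ensembl genes in the table, 4.82% were counted in 2H-11 alone and 5.01% in SVEC4-10 alone. The 11 genes with no count in any of the 6 libraries were the ligands Wnt2, Wnt3, Wnt3a, Wnt8a, Wnt8b and Wnt9b, the receptors Fzd9 and Fzd10, and the inhibitors Sfrp5, Dkk1 and Dkk4. Where no library of a line had a count, the level could still have reached 0.196 CPM in 2H-11 or 0.121 CPM in SVEC4-10, a limit set at 3 counts over the summed counts of that line and covering counting error only. These 11 were 26.8% of the Wnt genes, against 33.3% of the 22036 Ensembl genes in the table.

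Enough reads for a test were present for 16 of the 41 genes, and 14 more were counted below that level. Of the 16, 2 were higher in 2H-11 (Wnt10a and Dkk3) and 4 were lower (Wnt9a, Wnt11, Wnt5a and Fzd5), at a Benjamini-Hochberg adjusted p under 0.05 in edgeR's quasi-likelihood test over all genes tested. That is 37.5% of the Wnt genes tested, near the 36.2% called among all 13187 genes, so the share called is not a result about Wnt genes. By direction, 20.1% of all genes were called higher and 16.2% lower. Fitted on Ensembl identifiers only, which all 41 Wnt genes carry, 1657 of 10170 genes tested were higher and 1631 lower. In 9 of the 16 the libraries of the lines did not overlap (56.2%), against 46.8% of all genes tested. The median log2 fold change of the 16 was -0.56, against 0.0025 for all genes tested and -0.10 for those with Ensembl identifiers; it is the same with Wnt10a and Dkk3 at the bounds given below, since both stay above it. A gene counted in 1 line alone passes the filter only through that line, so these counts describe the genes and lend the pattern no support. DESeq2 and limma-voom, run on the genes kept by the same filter, called the same 6 genes. The authors' deposited results also put Wnt10b and Fzd7 at an adjusted p under 0.05.

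**Figure D1:**
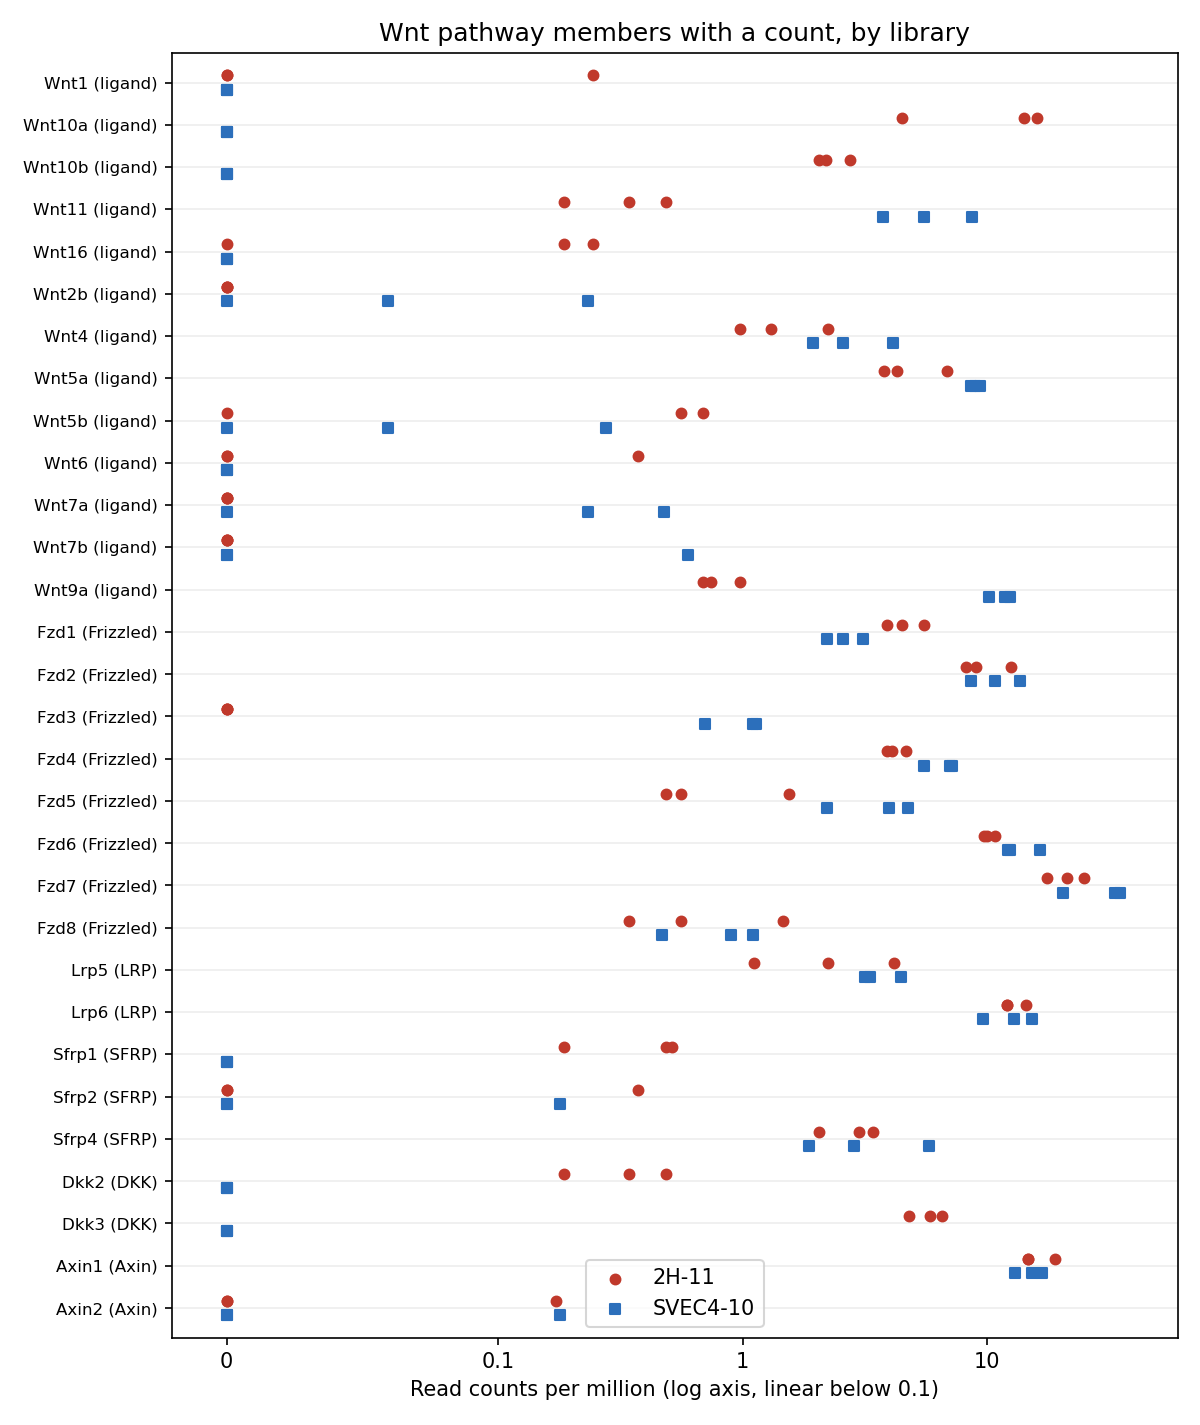
Level of the 30 Wnt genes with a count, in CPM (horizontal axis, log scale, linear below 0.1), by gene and role (vertical axis). Each red circle is a 2H-11 library and each blue square a SVEC4-10 library (3 each, overlapping symbols hide each other); Wnt10a, Wnt10b and Dkk3 lie at 0 in SVEC4-10 alone, and Wnt9a and Wnt11 lie lower in 2H-11.

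Of the 19 ligands 5 were tested, of which 1 was higher, 3 were lower and 1 did not pass. Wnt10a, a ligand of the beta-catenin branch needed for teeth, hair and skin (ENSMUSG00000026167, chromosome 1, 74791516 to 74804179 in GRCm38), stood at 4.47, 14.1 and 16.0 CPM in 2H-11 replicates 1 to 3 and had no count in the 3 SVEC4-10 libraries. The groups did not overlap, and 2H-11 replicate 1 was well below the other two. Taking 3 counts over SVEC4-10 as the limit, the mean of Wnt10a was at least 94.9-fold higher in 2H-11 (11.5 ± 6.18 CPM, SD, n = 3, edgeR adjusted p = 1.04e-06). Without SVEC4-10 replicate 3, the library with the most reads, the bound was 30.4-fold. Here and below, such bounds set the mean CPM of the counted line against the limit of the empty line. They leave out the spread and counting error of the counted line, so single libraries can lie below them.

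Wnt10b, the closest relative of Wnt10a and best known for holding back fat cell formation (ENSMUSG00000022996, chromosome 15, 98770712 to 98778150), was likewise counted in 2H-11 alone. Its level was 2.05, 2.19 and 2.75 CPM in 2H-11 replicates 1 to 3, from 11, 9 and 16 reads, and 0 in each SVEC4-10 library. It missed the filter on low counts and so has no test in the main comparison; it was at least 19.2-fold higher in 2H-11, or 6.14-fold without SVEC4-10 replicate 3. Fitted without a filter it passed (edgeR adjusted p = 1.34e-08 over 26293 genes, of which 26.5% were called), and the authors' deposited table lists it as higher in 2H-11 with a log2 fold change of 4.14 and an adjusted p of 7.53e-06. It also passed without 2H-11 replicate 2, SVEC4-10 replicate 1 or SVEC4-10 replicate 2, when it met the filter through its 2H-11 counts alone. Wnt10b was added after its values were seen, so these results describe the gene and lend the pattern no support.

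Wnt9a and Wnt11 were lower in 2H-11. Wnt9a, a ligand with roles in joints and, in zebrafish, in blood stem cell formation (ENSMUSG00000000126, chromosome 11, 59306928 to 59333552), stood at 0.744, 0.974 and 0.687 CPM in 2H-11 replicates 1 to 3, against 12.4, 11.9 and 10.1 CPM in SVEC4-10 replicates 1 to 3. All libraries of 2H-11 lay far below all of SVEC4-10, with little spread within either line. The fold change was 15.01-fold lower in 2H-11 (log2 fold change -3.91, SE 0.38, edgeR adjusted p = 1.96e-07).

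Wnt11, a ligand of the polarity branch that guides cell movement (ENSMUSG00000015957, chromosome 7, 98835112 to 98855195), was at 0.186, 0.487 and 0.343 CPM in 2H-11 replicates 1 to 3, and at 3.74, 5.51 and 8.63 CPM in SVEC4-10 replicates 1 to 3. The groups were apart, and the 2H-11 levels rested on 5 reads in all against 181 in SVEC4-10. Wnt11 was 19.3-fold lower in 2H-11 (log2 fold change -4.27, SE 0.55, edgeR adjusted p = 6.13e-06).

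Wnt5a, the best studied ligand of the branches that do not use beta-catenin (ENSMUSG00000021994, chromosome 14, 28504750 to 28527448), was present in both lines. It was at 4.28, 6.82 and 3.78 CPM in 2H-11 replicates 1 to 3 and at 8.88, 8.54 and 9.35 CPM in SVEC4-10 replicates 1 to 3. Every 2H-11 library was below every SVEC4-10 library, and the difference was 1.96-fold (log2 fold change -0.97, SE 0.31, edgeR adjusted p = 0.0190). This call was lost when either of 2 libraries was left out, with an adjusted p of 0.0542 without 2H-11 replicate 3 and 0.0563 without SVEC4-10 replicate 3. Wnt5a overlaps a gene annotated on the opposite strand, as do the called genes Wnt11 and Fzd5 and the others Wnt6, Wnt7b, Fzd3, Fzd6, Sfrp2, Axin1 and Axin2, and Wnt5b overlaps the coding gene Fbxl14 on the opposite strand. Whether the counting used strand is not given in the sources used here, so reads of such partners cannot be told apart.

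Wnt4, a ligand of kidney and female reproductive tract formation, had 1.503 ± 0.652 CPM in 2H-11, with 2.87 ± 1.12 CPM in SVEC4-10 (SD, n = 3 each). The libraries overlapped and the difference did not pass (log2 fold change -1.08, SE 0.44, edgeR adjusted p = 0.0643). Without 2H-11 replicate 3, the highest library of that line, it passed at an adjusted p of 0.0303, and without SVEC4-10 replicate 3 it was too low to test.

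The other counted ligands were at the edge of detection. Wnt7a and Wnt7b, the ligands of brain vessels, had no count in 2H-11 and 9 and 10 counts in SVEC4-10, all 10 of Wnt7b in replicate 3. Wnt2b had 2 counts, both in SVEC4-10. Wnt5b had 7 counts in 2H-11 and 2 in SVEC4-10, which scaled to the line totals was 5.65 times higher with a 95% counting interval of 1.08 to 55.7. Wnt1 had 1 count, Wnt6 2 and Wnt16 2, each in 2H-11 alone. None of these 7 had enough counts for a test.

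Several ligands lie beside each other in the mouse genome, and in each such pair 1 partner at most had more than 2 counts. Of all 19 ligands, 6 were uncounted and 8 were counted below the filter, and a pattern among neighbours was not tested. Wnt6 and Wnt10a are 6.19 kb apart on chromosome 1, with 2 and 175 counts in 2H-11 and none in SVEC4-10. Wnt10b and Wnt1 are 11.7 kb apart on chromosome 15, with 36 counts and 1 count in 2H-11 and none in SVEC4-10. Wnt3a and Wnt9a are 16.2 kb apart on chromosome 11, where Wnt3a had no count in either line and Wnt9a had 12 in 2H-11 and 266 in SVEC4-10. Wnt9b and Wnt3, 24.3 kb apart on chromosome 11, were uncounted in both lines.

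The bases in front of a start site are given for Wnt11, Wnt9a, Fzd5 and Wnt10b from the RefSeq promoter table (GRCm38.p6), each as the 250 bases before the start, 5′ to 3′ on the gene's strand. Capitals mark the TCF/LEF core CTTTGAT, the sequence bound by the nuclear partners of beta-catenin, and the TATA box TATAAA, each searched on both strands; the letters of the motifs do not overlap.
Wnt11 (chr7:98834862-98835111, plus strand): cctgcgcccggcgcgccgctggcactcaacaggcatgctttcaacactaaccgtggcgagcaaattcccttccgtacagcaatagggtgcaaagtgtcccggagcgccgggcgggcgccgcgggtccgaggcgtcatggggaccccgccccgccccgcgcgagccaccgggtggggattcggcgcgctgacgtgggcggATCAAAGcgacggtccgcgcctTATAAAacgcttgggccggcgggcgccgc
Wnt9a (chr11:59306680-59306929, plus strand): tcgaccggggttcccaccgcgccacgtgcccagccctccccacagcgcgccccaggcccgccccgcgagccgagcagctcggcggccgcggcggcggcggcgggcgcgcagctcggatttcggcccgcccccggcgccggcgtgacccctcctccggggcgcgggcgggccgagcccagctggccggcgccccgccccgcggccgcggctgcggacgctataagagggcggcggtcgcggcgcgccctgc
Fzd5 (chr1:64737751-64738000, minus strand): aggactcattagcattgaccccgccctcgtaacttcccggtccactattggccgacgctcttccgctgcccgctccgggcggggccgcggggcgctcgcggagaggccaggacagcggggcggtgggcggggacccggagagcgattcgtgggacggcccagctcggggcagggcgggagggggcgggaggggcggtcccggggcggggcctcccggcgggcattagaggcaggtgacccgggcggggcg
Wnt10b (chr15:98778151-98778400, minus strand): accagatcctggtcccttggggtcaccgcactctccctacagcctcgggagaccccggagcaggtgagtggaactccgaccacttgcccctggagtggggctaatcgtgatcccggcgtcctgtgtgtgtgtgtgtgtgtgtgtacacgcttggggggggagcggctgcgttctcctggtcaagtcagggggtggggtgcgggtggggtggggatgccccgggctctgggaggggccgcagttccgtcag
The Wnt11 stretch holds both motifs, a TCF/LEF core on the opposite strand that begins 51 bases before the start and a TATA box that begins 29 bases before it. The other 3 stretches hold neither, nor does the window of a further Wnt11 start site (chr7:98838595-98838844, plus strand), which is not printed. The same windows of all genes held the core in 3.21% and the TATA box in 12.4% of 32851. Of the 26 Wnt genes matched in the table, with 29 windows, 4 held the TATA box (Wnt11, Dkk1, Dkk2 and Fzd1) and 2 the core (Wnt11 and Wnt5b). Of the pair with the core, Wnt11 had 5 counts in 2H-11 and 181 in SVEC4-10, and Wnt5b had 7 counts in 2H-11 and 2 in SVEC4-10. The windows of the Wnt genes were rich in CpG, with a median of 22 CpG and 69.2% G and C, against 6 and 52.4% over all windows. A match is a description of the letters and not a site in use.

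Of the 10 Frizzled receptors, 7 were counted in both lines, 1 (Fzd3) in SVEC4-10 alone and 2 in neither. Of the 10, 6 were tested, 0 were higher and 1, Fzd5, was lower in 2H-11. The 5 others tested did not pass, and DESeq2 and limma-voom called 1 Frizzled each. The summed level of the 10 was 52.5, 50.7 and 52.0 CPM in 2H-11 replicates 1 to 3, and 72.7, 53.2 and 80.4 CPM in SVEC4-10 replicates 1 to 3. The sums did not overlap, but SVEC4-10 replicate 2 lay just above the 2H-11 libraries.

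Fzd5, a receptor with known roles in the eye, the gut and the yolk sac vessels of the mouse (ENSMUSG00000045005, chromosome 1, 64730558 to 64737751), was at 0.558, 0.487 and 1.55 CPM in 2H-11 replicates 1 to 3 and at 3.97, 2.21 and 4.76 CPM in SVEC4-10 replicates 1 to 3. All 2H-11 libraries were lower, and replicate 3 was the highest of them. It was 4.44-fold lower in 2H-11 (log2 fold change -2.15, SE 0.49, edgeR adjusted p = 0.00190). The fold was 7.70 without 2H-11 replicate 3, and without SVEC4-10 replicate 3 the gene was too low to test.

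Fzd7, the Frizzled with the most reads in both lines and a receptor of both main branches, was at 24.9, 21.2 and 17.5 CPM in 2H-11 replicates 1 to 3 and at 34.8, 20.4 and 33.3 CPM in SVEC4-10 replicates 1 to 3. The groups overlapped through SVEC4-10 replicate 2. The difference missed the threshold (log2 fold change -0.58, SE 0.23, edgeR adjusted p = 0.0594), and passed it without 2H-11 replicate 1 (0.04005) or without SVEC4-10 replicate 2 (0.0145). The authors' deposited table gives Fzd7 a log2 fold change of -0.60 with an adjusted p of 0.0481.

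Fzd4, the Norrin receptor of retinal vessels, had 4.21 ± 0.382 CPM in 2H-11, with 6.58 ± 0.926 CPM in SVEC4-10 (SD, n = 3 each; edgeR adjusted p = 0.0720). Fzd6, a receptor of planar polarity in hair and skin, had 10.1 ± 0.540 CPM in 2H-11, with 13.6 ± 2.41 CPM in SVEC4-10 (edgeR adjusted p = 0.0997). In both genes the libraries of the lines did not overlap, and still neither passed. Fzd1 lay the other way, at 4.62 ± 0.809 CPM in 2H-11, with 2.62 ± 0.448 CPM in SVEC4-10, without overlap and without passing (edgeR adjusted p = 0.1503). Fzd2 overlapped between the lines (9.91 ± 2.31 CPM in 2H-11, with 10.98 ± 2.55 CPM in SVEC4-10; edgeR adjusted p = 0.507).

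Fzd3, a receptor of axon guidance, was counted in SVEC4-10 alone, with 0 reads in 2H-11 and 3, 4 and 19 reads in SVEC4-10 replicates 1 to 3. These are 0.701, 1.10 and 1.13 CPM, so all 3 SVEC4-10 libraries held it at a similar low level. It was below the filter. Without a filter it passed (edgeR adjusted p = 0.000319, in a fit that called 26.5% of all genes). Fzd3 was at least 4.99-fold lower in 2H-11, or 3.24-fold and 3.09-fold without 2H-11 replicate 1 or 3. Like Wnt10b, it was added after its values were seen. Fzd8 had 11 counts in 2H-11 and 21 in SVEC4-10 and overlapped between the lines.

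Neither co-receptor passed the test. Lrp6 was at 12.1, 14.4 and 12.0 CPM in 2H-11 replicates 1 to 3 and at 12.9, 9.65 and 15.2 CPM in SVEC4-10 replicates 1 to 3. The 2H-11 libraries lay within the range of SVEC4-10, and the difference did not pass (log2 fold change -0.10, SE 0.25, edgeR adjusted p = 0.802). Lrp5, the co-receptor tied to bone mass and retinal vessels, had 2.50 ± 1.53 CPM in 2H-11, with 3.63 ± 0.703 CPM in SVEC4-10 (SD, n = 3 each), and did not pass either (log2 fold change -0.65, SE 0.43, edgeR adjusted p = 0.269). For neither was the unadjusted p under 0.05, and DESeq2 and limma-voom called 0 of the 2.

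**Figure D2:**
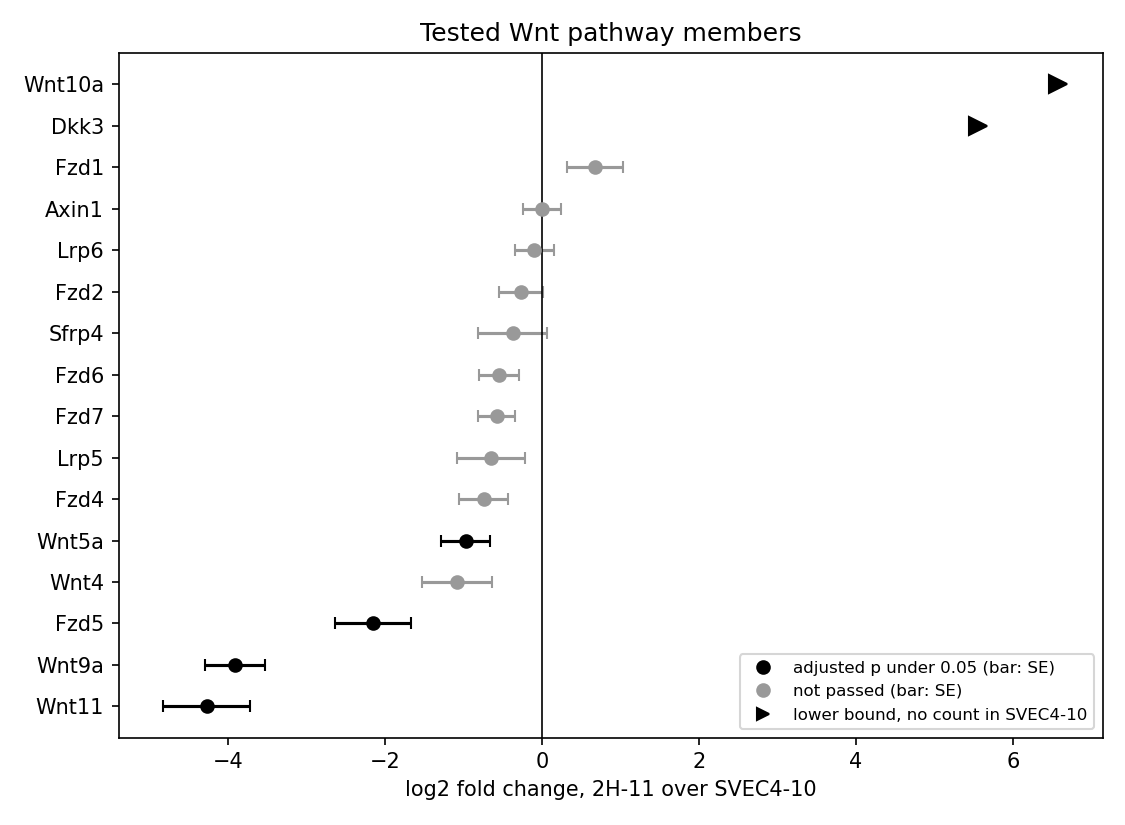
Log2 fold change of 2H-11 over SVEC4-10 (horizontal axis) for the 16 Wnt genes tested (vertical axis), with bars for the standard error. Black marks passed an edgeR adjusted p under 0.05 and grey marks did not; triangles are lower bounds for Wnt10a (94.9-fold) and Dkk3 (47.1-fold), which had no count in SVEC4-10, while Wnt11 and Wnt9a lie at -4.27 and -3.91.

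Of the 4 DKKs 1 was tested, Dkk3, and it was higher in 2H-11. Dkk3 is a divergent DKK that, unlike Dkk1, is not known as a standard blocker of the LRP co-receptors (ENSMUSG00000030772, chromosome 7, 112116017 to 112159057). It stood at 6.51, 5.85 and 4.81 CPM in 2H-11 replicates 1 to 3 and had no count in any SVEC4-10 library. The 2H-11 libraries were close to each other, from 35, 24 and 28 reads. Dkk3 was at least 47.1-fold higher in 2H-11 (5.72 ± 0.860 CPM, SD, n = 3; edgeR adjusted p = 4.94e-07), or 15.1-fold without SVEC4-10 replicate 3. Dkk2, which blocks LRP co-receptors more weakly than Dkk1, had 5 counts in 2H-11, in all 3 libraries, and 0 in SVEC4-10. Dkk1 and Dkk4 were uncounted, so no DKK was counted in SVEC4-10.

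The SFRPs were low in both lines. Sfrp4, the SFRP with the most reads, was at 2.98, 3.41 and 2.06 CPM in 2H-11 replicates 1 to 3 and at 1.87, 5.79 and 2.86 CPM in SVEC4-10 replicates 1 to 3. The 2H-11 libraries fell within the range of SVEC4-10, where replicate 2 was the highest, and the difference did not pass (log2 fold change -0.37, SE 0.44, edgeR adjusted p = 0.553). Sfrp1 had 6 counts in 2H-11, in all 3 libraries, and 0 in SVEC4-10, and was below the filter. It passed in a fit without one that called 26.5% of all genes (edgeR adjusted p = 0.0423). That pass rests on its few 2H-11 counts, so it describes the gene and lends the pattern no support. Dkk2, with 5 counts in 2H-11 alone, did not pass in that fit (edgeR adjusted p = 0.0668). Sfrp2 had 2 counts in 2H-11 and 3 in SVEC4-10.

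Axin1, the scaffold that holds the beta-catenin destruction complex together, was at 14.7, 14.6 and 18.9 CPM in 2H-11 replicates 1 to 3 and at 15.2, 13.0 and 16.7 CPM in SVEC4-10 replicates 1 to 3. The lines overlapped, with a log2 fold change of 0.0037 (SE 0.24, edgeR adjusted p = 0.993). Axin2, its relative that is itself a widely used target gene of beta-catenin and TCF, had 1 count in 2H-11 and 3 counts in SVEC4-10. Its summed level was 0.0653 CPM in 2H-11 (95% exact Poisson interval 0.00165 to 0.364) and 0.121 CPM in SVEC4-10 (0.0250 to 0.355). At this depth a difference in Axin2 was not detectable.

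**Figure D3:**
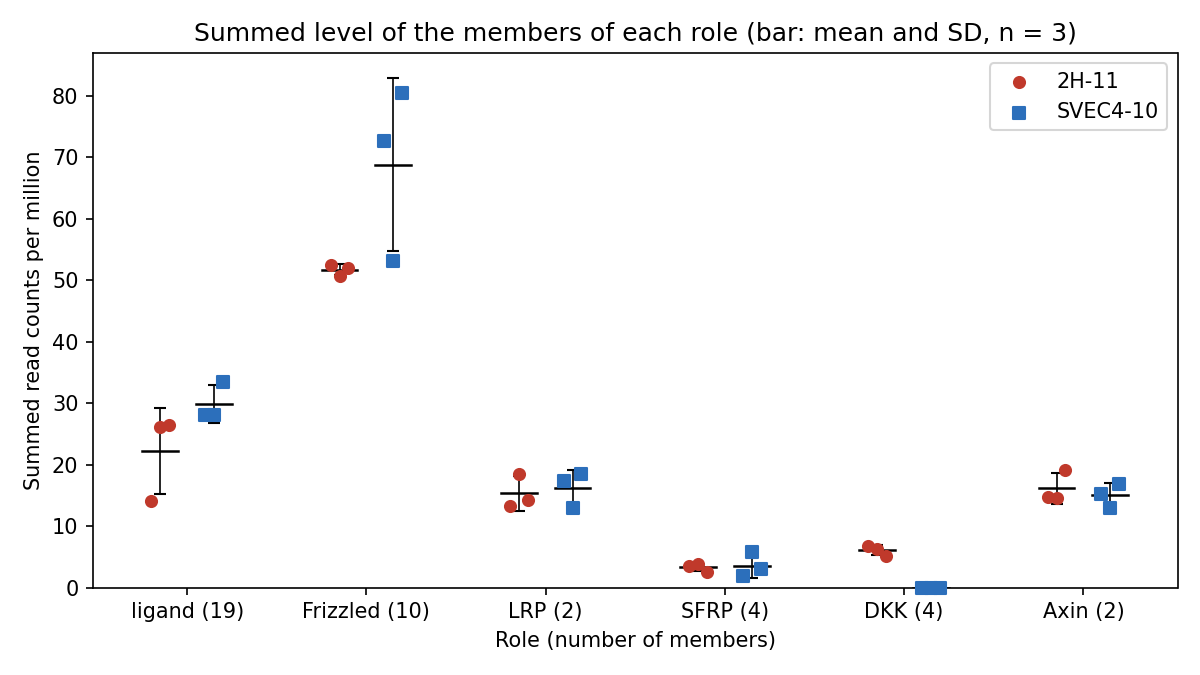
Summed level of the Wnt genes of each role in CPM (vertical axis), per library, for the 6 roles (horizontal axis, with the number of members). Circles are 2H-11 and squares SVEC4-10 libraries, and bars give the mean and SD (n = 3 each); the DKK sum is 6.06 ± 0.809 in 2H-11 and 0 in SVEC4-10, and the LRP and Axin sums overlap between the lines.

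Summed over each role, the lines overlapped for the LRP co-receptors, the SFRPs and the Axins. The 19 ligands summed to 14.1, 26.1 and 26.4 CPM in 2H-11 replicates 1 to 3 and to 28.05, 28.11 and 33.4 CPM in SVEC4-10 replicates 1 to 3. All 2H-11 sums were lower. Wnt10a and Wnt10b gave 175 and 36 of the 337 ligand counts in 2H-11 and none of the 783 in SVEC4-10.

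The other genes of the pathway were taken from 6 lists. Of 126 names, 123 were in the table, and the rest (Tle5, Ccn4 and Ccn5) are other symbols of the listed Aes, Wisp1 and Wisp2. Of the 123, 76 were tested, of which 10 were higher and 15 lower in 2H-11 (32.9%, against 36.2% of all genes). The 36.2% includes genes without Ensembl identifiers, while all list genes in the table have them. The share called was 42.9% for secretion and release, 50% for other modulators and receptors and 13.0% for the cytoplasmic list. It was 23.5% for nuclear factors, 90% for common TCF targets and 18.2% for planar polarity. The lists were chosen with earlier results of these data known, and differences between their shares were not tested. The median log2 fold change of the 76 genes was 0.029, against 0.0025 for all genes tested. The 2 genes with the smallest p among those called are described for each list, and other names were chosen after their values were seen.

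In the list on secretion and release, 1 of 7 tested genes was higher and 2 were lower. Wls, the carrier that brings Wnts to the cell surface, was at 211, 194 and 130 CPM in 2H-11 replicates 1 to 3 and at 353, 362 and 276 CPM in SVEC4-10 replicates 1 to 3, 1.99-fold lower in 2H-11 (log2 fold change -0.99, SE 0.19, edgeR adjusted p = 0.000427). Trabd2b, a membrane protease that inactivates Wnts, was higher, at 5.02 ± 0.627 CPM in 2H-11, with 1.44 ± 0.437 CPM in SVEC4-10 (edgeR adjusted p = 0.00278). Porcn, the enzyme that attaches the lipid, had 34 counts in 2H-11 and 65 in SVEC4-10 and did not pass.

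Among other secreted modulators and receptors, 2 of 8 tested genes were higher and 2 lower. Of the 28, 10 were uncounted in both lines, among them Ndp, which encodes Norrin, and the beta-catenin target genes Lgr5 and Rnf43. Znrf3 and Apcdd1, also used as target genes, were counted below the filter, with 23 and 0 counts in 2H-11 and 67 and 1 in SVEC4-10. Cthrc1, a secreted protein reported to favour the polarity branch, was at 8.56, 5.60 and 6.35 CPM in 2H-11 replicates 1 to 3 and uncounted in SVEC4-10, at least 56.3-fold higher (18.0-fold without SVEC4-10 replicate 3; edgeR adjusted p = 3.32e-07). Rspo1, a secreted amplifier of Wnt signals, showed the opposite, with no count in 2H-11 and 8.88, 4.96 and 6.43 CPM in SVEC4-10 replicates 1 to 3. It was at least 34.5-fold lower (22.4-fold and 21.4-fold without 2H-11 replicate 1 or 3; edgeR adjusted p = 6.89e-07). Rspo1 is also made by mesothelial cells and is 1 of the 8 mesothelial markers above, which were mostly lower in 2H-11; their part in this difference was not tested. The other called genes were Kremen1, a DKK receptor, higher, and Tspan12, the partner of Fzd4, lower.

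Of 23 tested genes of the cytoplasmic machinery 1 was higher and 2 were lower, and 20 did not pass, among them the 3 Dishevelled genes, Apc and both Gsk3 genes. Ctnnb1, which encodes beta-catenin, had 1395 counts in 2H-11 and 2207 in SVEC4-10 (log2 fold change -0.14, SE 0.18, edgeR adjusted p = 0.587). Amer1, a scaffold of the destruction complex, was 3.39-fold lower at 16.7 ± 3.50 CPM in 2H-11, with 53.3 ± 15.7 CPM in SVEC4-10 (edgeR adjusted p = 1.04e-05). Rnf146, a ubiquitin ligase that removes Axin, was 2.53-fold lower at 45.2 ± 6.19 CPM in 2H-11, with 107 ± 20.9 CPM in SVEC4-10 (edgeR adjusted p = 3.97e-05).

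Of 17 nuclear factors tested 1 was higher and 3 were lower. Tle4, a co-repressor of TCF factors, was at 1.46 ± 0.518 CPM in 2H-11, with 12.9 ± 1.16 CPM in SVEC4-10, 9.07-fold lower (edgeR adjusted p = 8.36e-07). Tcf7, a TCF factor, was 4.35-fold higher, at 5.86 ± 2.60 CPM in 2H-11, with 1.39 ± 0.626 CPM in SVEC4-10 (edgeR adjusted p = 0.00116). Lef1, its relative, was counted in 2H-11 alone, with 13 reads, below the filter.

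Genes often used as TCF targets went both ways, with 4 of 10 tested higher and 5 lower (90%, against 36.2% of all genes tested). Bmp4, a secreted growth factor, had 1 count in 2H-11, against 260 in SVEC4-10; scaled to the line totals the ratio was 161 (95% counting interval 28.7 to 6387; edgeR adjusted p = 6.96e-08), and without 2H-11 replicate 3, which held that count, it was at least 34.2-fold lower. It was 105 times lower without 2H-11 replicate 1 (18.6 to 4144). Wisp2, a CCN family matricellular protein, had 116 counts in 2H-11 and 2 in SVEC4-10, which scaled likewise was a ratio of 93.6 (25.3 to 782; edgeR adjusted p = 3.20e-07). Its ratio was 155 (27.2 to 6167) without SVEC4-10 replicate 1 and 59.9 (10.5 to 2387) without SVEC4-10 replicate 3. Ccnd1, Cd44 and Birc5 were also higher in 2H-11, while Myc, Id2, Plaur and Wisp1 were lower. Of the rest of the list, 6 were uncounted, among them the common target Sp5, and 4 were counted below the filter. Of these 4, Nkd1, a target that restrains the pathway, had 1 count, in SVEC4-10, and Tnfrsf19 had 1, in 2H-11. Nkd2 had 9 counts in 2H-11 and 1 in SVEC4-10, and Jag1 had 10 and 67.

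In the planar polarity list 1 of 11 tested genes was higher and 1 lower. Mapk9, a JNK kinase, was at 21.5 ± 1.85 CPM in 2H-11, with 11.2 ± 1.95 CPM in SVEC4-10 (edgeR adjusted p = 0.0101). Daam1, a formin that binds Dishevelled, was at 11.3 ± 3.74 CPM in 2H-11, with 19.3 ± 4.05 CPM in SVEC4-10 (edgeR adjusted p = 0.0148), and lost its call without 2H-11 replicate 3 (0.0584) or without SVEC4-10 replicate 3 (0.0540).

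**Figure D4:**
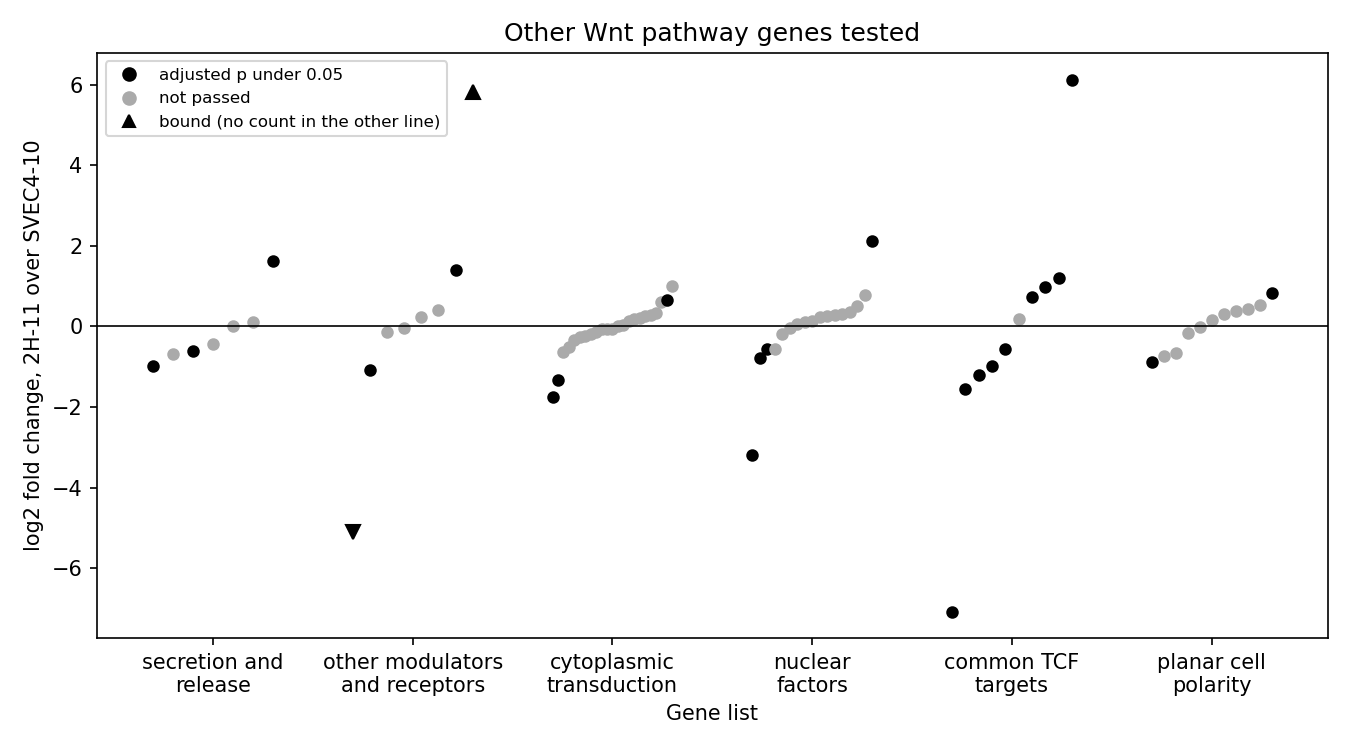
Log2 fold change of 2H-11 over SVEC4-10 (vertical axis) of the 76 other pathway genes tested, by list (horizontal axis). Black marks passed an edgeR adjusted p under 0.05, grey marks did not, and triangles are bounds for Cthrc1 (56.3-fold higher) and Rspo1 (34.5-fold lower); 20 of the 23 cytoplasmic genes are grey, and the outermost target genes are fitted values of Bmp4 and Wisp2, which had 1 and 2 counts in their lower line.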

How the data were processed

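Per the labels' protocols, RNA was taken with Trizol and the library kit was SQK-RNA002, for direct RNA sequencing; mm10 and GRCm38 are the builds in the submitters' processing notes. Not given in the sources used here are the aligner, counter, annotation, any filters and whether strand was used. The authors deposited a table with raw read counts per gene and library, and the same counts as CPM, each divided by its library total. The other deposited columns are the authors' DESeq2 results, a log2 fold change and an adjusted p-value per gene, positive where 2H-11 is higher, as read from the CPM values. After 13 rows that name no gene were left out, 34724 genes remained.

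The lines were compared on the counts with edgeR 4.0.16 in R 4.3.3: filterByExpr (minimum count 10, minimum total 15), TMM scaling, the quasi-likelihood test with line as the only term, and Benjamini-Hochberg adjustment over the 13187 genes tested, at a threshold of 0.05. The test was tested on simulated data. The alternatives were DESeq2 1.42.0, limma-voom (limma 3.58.1), other scalings and filters, thinning to the smallest library, a replicate block, leaving out each library and, added after seeing the data, Ensembl identifiers only. Totals per library spanned 4.63-fold, and intervals (95%) cover counting error only. With no count in a line, folds are bounds, the mean CPM of the other line over the CPM of 3 counts in the empty line. These bounds leave out the spread and counting error of the counted line. The SE was derived from the quasi-likelihood test, as the size of the log2 fold change over the square root of the F statistic. Coordinates are GENCODE M21 on GRCm38, 1-based.

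Genes past the threshold and the tested gene with the most reads of each role are given per library, and from each pathway list the 2 genes past the threshold with the smallest p. Wnt10b and Fzd3 were added to these after their values were seen, as was the reporting of genes counted in 1 line alone. The genes and lists were chosen with earlier results of these data known.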

Additional observations from a re-analysis of the deposited data

How the results depend on the processing

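DESeq2 size factors, library totals, DESeq2, limma-voom and Ensembl identifiers only each gave the same 6 calls among the Wnt genes. Without a filter, 4 Wnt genes were higher and 6 lower (Fzd3, Fzd7, Sfrp1 and Wnt10b were gained), and 16 pathway genes were higher, against 10. With at least 20 counts in 3 libraries 2 were lower, since Fzd5 and Wnt11 were no longer tested. After thinning to the smallest library 1 was higher and 2 were lower; Wnt10a and Fzd5 were not tested and Wnt5a had an adjusted p of 0.0603. Leaving out each library gave 2 to 3 higher and 2 to 5 lower Wnt genes, with 2 lower without SVEC4-10 replicate 3. Over all genes it gave 2281 to 2929 higher and 1754 to 2220 lower, and in the pathway lists 10 to 11 higher and 11 to 16 lower. With Ensembl identifiers only, fewer genes were tested and 1657 were higher, against 2645. Library totals moved the median of all genes to 0.099 (log2). Deviations from the line means in same-numbered libraries had correlations of -0.01, 0.05 and -0.00, and the other pairs had -0.08 to 0.07. With 3 libraries per line, these values cannot exclude a shared preparation. With the number as a replicate block the same 6 Wnt genes were called, with 2 higher and 4 lower. In that fit 2491 genes were higher and 1970 lower. Of 408 comparisons over 28 single genes, 5 lost and 4 gained a call and 0 reversed. These leave out each setting in which a gene was no longer tested. Among the called Wnt genes, Fzd5 dropped out under the 20-count filter, after thinning and without SVEC4-10 replicate 3. Wnt11 dropped out under the 20-count filter and Wnt10a after thinning. Depth limits the 14 Wnt genes counted but not tested, and the bounds on genes at 0 in SVEC4-10 fell to 30.4-fold for Wnt10a and 15.1-fold for Dkk3 without replicate 3 of that line.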
